A study of Saccharomyces cerevisiae with 4 samples.

Results

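The genes described here are 42 yeast genes for chaperones, storage carbohydrates and general stress defence, of 3099 named genes measured. They were chosen by a rule on gene symbols, set with earlier results of these data known. A probe had to carry exactly 1 gene symbol and to have a value on all 4 arrays. Its symbol had to be of the heat shock, Hsp70, Hsp90, J protein, CCT, trehalose, glycogen and stress gene series, with SSA3 left out. The rule took 47 probes, and 38 of the 42 genes had 1 probe. By known role they are 23 chaperone genes, 5 genes of trehalose and glycogen, and 14 other stress genes. The last group also holds SIS2, which was taken for its letters and was placed outside these roles. The 23 chaperone genes include 3 that work in mitochondria, so the set is not purely cytosolic. Another 29 symbols of the same series in the R64 annotation, among them HSP104, SSA1, SSA4, HSC82, HSP60, TSL1, GSY2 and MSN2, have no single-symbol probe here and were not analysed.

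Each array compared RNA of 2 strains made in the yeast background W303-1A. Strain W303-1A CadA expresses the P-type ATPase CadA of Listeria monocytogenes, and strain W303-1A D398A expresses its mutant D398A. Both were grown at 30 °C to an OD600 of 0.4 in minimal medium with amino acids and adenine and then kept for 1 h with 1 µM cadmium. Cadmium was thus given to both strains, and no untreated RNA enters any ratio. The labels name neither the promoter nor the vector of the transgenes. They also leave unsaid whether separate cultures fed the 4 arrays, so a p-value here covers array to array spread, possibly technical only.

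Chaperones of the Hsp70 and Hsp90 families bind unfolded protein and release it in cycles of ATP use, J proteins hand them their clients, and the ring-shaped chaperonin CCT folds actin and tubulin. In yeast the heat shock factor Hsf1 drives many of these genes, whereas Msn2 and Msn4 drive a wider set that includes trehalose and glycogen enzymes and small stress proteins. Cadmium binds thiols and is known to disturb protein folding in yeast.

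The deposited log2 ratio does not state its numerator, so every value is given in 1 of 2 readings. In the first, called turned, the sign was kept on arrays 2 and 4, where CadA RNA carried Cy3, and reversed on arrays 1 and 3, where it carried Cy5. A positive turned value stands for the CadA strain if the numerator is Cy3 and for the D398A strain if it is Cy5, and no strain is named for it. The second reading takes the signs as deposited and is the strain comparison only if the submitters had already turned the ratios. Arrays 1 and 2 were wider than the others, with SDs of 0.87 and 0.95 over all probes against 0.46 and 0.47 on arrays 3 and 4.

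No chaperone or stress gene differed between the strains past the threshold in either reading. Of the 42 genes, 0 had a limma adjusted p below 0.05 in turned signs, against 0% of all 5946 features, and 0 in signs as deposited, again against 0%. An unadjusted limma p below 0.05 was reached in turned signs by 2 genes, HSP12 and BTN2, or 4.76% of the genes against 1.88% of all features. In signs as deposited it was reached by 7 genes, or 16.7% against 11.7%. With so few genes neither share is read as a property of the set. The 42 means had a median of 0.06 in turned signs, where all features had -0.01, and of 0.11 as deposited, where all features had -0.03. Their typical size, the median of the means without sign, was 0.17 in turned signs and 0.27 as deposited, beside 0.17 and 0.28 for all features.

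The arrays limit what could be seen. The 95% limma interval of a gene's turned mean reached 0.73 to either side in the median gene, from 0.59 for the tightest to 1.55 for the widest. A gene that misses the threshold may therefore still differ by an amount within its interval.

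**Figure D1:**
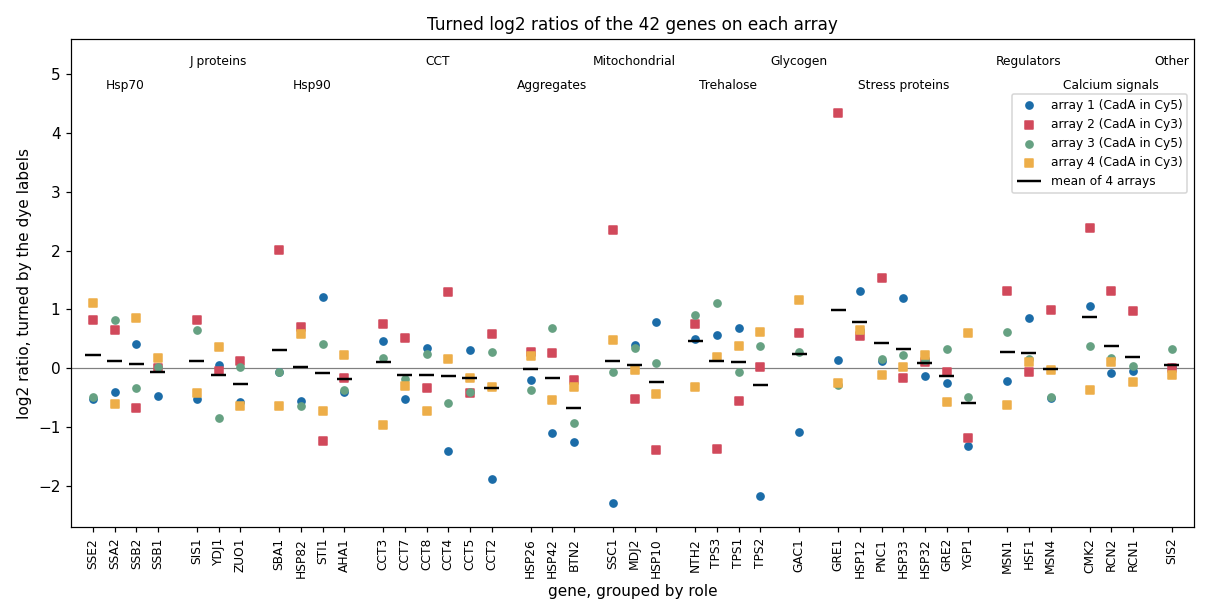
Log2 ratios of the 42 genes in turned signs (vertical axis), grouped by role along the horizontal axis; points are the 4 arrays, circles with CadA in Cy5 and squares with CadA in Cy3, and black bars are the means of 4 arrays. HSP12 has all 4 points above 0 and BTN2 all 4 below, while GRE1 has 1 point at 4.35 and the others near 0.

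Among the genes of small stress proteins, HSP12 alone was positive on all 4 arrays in turned signs. HSP12, which codes for a small membrane-associated stress protein and is a textbook target of Msn2 and Msn4, read 1.31, 0.55, 0.64 and 0.65 on arrays 1 to 4 in turned signs. All 4 values lay above 0, and arrays 2 to 4 lay close together below array 1. Its mean was 0.79 ± 0.35 (SD, n = 4), or 1.73-fold, with a 95% interval of 0.16 to 1.41 and an adjusted p of 1.00 (limma). Leaving out any 1 array gave a mean between 0.61 and 0.87. In turned signs 3.40% of all features were positive on all 4 arrays, and of the 42 genes 1 was, HSP12. In signs as deposited HSP12 averaged -0.19 ± 0.95, with arrays 1 and 3 below 0 and arrays 2 and 4 above.

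The other stress proteins did not keep a common sign over the arrays. GRE1, a hydrophilin gene induced by drying and salt, read 0.15, 4.35, -0.29 and -0.25 in turned signs, so its mean of 0.99 ± 2.25 came from array 2 alone and was -0.13 without it. PNC1, the nicotinamidase gene, read 0.13, 1.54, 0.16 and -0.11, again with array 2 far above the rest, and averaged 0.43 ± 0.75, or 0.06 without that array. YGP1, which codes for a secreted glycoprotein related to the cell wall, was the lowest of the group. It read -1.32, -1.18, -0.49 and 0.60, so 3 arrays lay below 0 and array 4 above, with a mean of -0.60 ± 0.88 and -0.996 without array 4. GRE2, a methylglyoxal reductase gene, averaged -0.13 ± 0.37.

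HSP33 and HSP32 belong to a family of near-identical copies beside HSP31, and a spotted reading frame can bind cDNA of a copy, so their ratios are uncertain as to the gene. HSP33 averaged 0.32 ± 0.61 in turned signs, with 1.20 on array 1 and between -0.17 and 0.22 on the others. HSP32 averaged 0.09 ± 0.15 and had the smallest spread of the 42 genes in that reading.

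BTN2 was the lowest gene of the set in turned signs. The Btn2 protein gathers misfolded proteins into deposits, as does the small heat shock protein Hsp42. BTN2 read -1.26, -0.19, -0.93 and -0.31 on arrays 1 to 4, so every array lay below 0 and arrays 1 and 3 lay furthest. Its mean was -0.67 ± 0.51, a ratio of 1.59-fold toward the negative side, with a 95% interval of -1.34 to -0.01 and a limma adjusted p of 1.00. Leaving out any 1 array gave a mean between -0.83 and -0.48. The unadjusted limma p of BTN2 was 0.048 (0.014 to 0.18 over the alternatives). After print blocks were centred that p was 0.13 and the mean -0.50. Negative on all 4 arrays were 3.58% of all features and 1 of the 42 genes, BTN2. As deposited the mean was 0.42 ± 0.79, with arrays 1 and 3 above 0 and arrays 2 and 4 below.

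The small heat shock protein genes beside BTN2 lay nearer 0. HSP42 read -1.11, 0.27, 0.69 and -0.54 in turned signs, with 2 arrays on each side, and averaged -0.17 ± 0.80. HSP26, whose protein binds unfolded chains in large oligomers, read -0.20, 0.28, -0.37 and 0.21 and averaged -0.02 ± 0.31. In signs as deposited all 4 arrays of HSP26 lay between 0.20 and 0.37, with a mean of 0.26 ± 0.08 and a limma adjusted p of 0.58.

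The 4 cytosolic Hsp70 and Hsp110 genes had a median of 0.09 in turned signs, which was -0.10 without array 4 and -0.01 without array 2, and of 0.09 as deposited. SSA2, a constitutive Hsp70 of the cytosol whose reading frame is nearly that of SSA1, read -0.40, 0.65, 0.82 and -0.61 in turned signs and averaged 0.12 ± 0.72. SSB1 and SSB2 code for near-identical Hsp70s that bind new chains at the ribosome, and their probes may share cDNA. SSB1 averaged -0.07 ± 0.28 and SSB2 0.07 ± 0.70, and on array 2 they read 0.01 and -0.68. SSE2, an Hsp110 that exchanges nucleotide on Hsp70, averaged 0.23 ± 0.86, with arrays 1 and 3 below 0 and arrays 2 and 4 above.

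The J protein genes had the median -0.12 in turned signs over 3 genes. SIS1, an essential J protein that works with the Ssa chaperones, read -0.53, 0.82, 0.65 and -0.42 and averaged 0.13 ± 0.70. YDJ1, the main J protein of the cytosol, read 0.06, -0.05, -0.85 and 0.36 and averaged -0.12 ± 0.52. ZUO1, the J protein that recruits Ssb to the ribosome, averaged -0.27 ± 0.40. Each had arrays on both sides of 0, and each 95% interval held 0, from -0.90 to 0.37 for ZUO1.

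In the Hsp90 group the values of HSP82 differed between the readings. HSP82, 1 of the 2 near-identical Hsp90 genes of yeast and able to share cDNA with HSC82, read 0.56, 0.71, 0.65 and 0.58 in signs as deposited. These are the closest values of the 42 genes in either reading, and they gave 0.62 ± 0.07 (1.54-fold), with a 95% interval of 0.16 to 1.09 and a limma adjusted p of 0.42 (0.24 to 0.72 over the alternatives). In turned signs the same gene averaged 0.02 ± 0.72, since its deposited ratio kept its sign when the dyes were swapped. STI1, which joins Hsp70 to Hsp90, went the opposite way. It read -1.22, -1.24, -0.41 and -0.73 as deposited, all below 0, with a mean of -0.90 ± 0.41 and a limma adjusted p of 0.42. Its turned mean was -0.09 ± 1.11.

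The other Hsp90 partners were less even. SBA1, the p23 co-chaperone, averaged 0.31 ± 1.17 in turned signs, with 2.01 on array 2 and values from -0.63 to -0.07 on the others, and -0.26 without array 2. AHA1, the activator of the Hsp90 ATPase, averaged -0.18 ± 0.29 in turned signs and 0.21 ± 0.26 as deposited.

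Of the 6 measured CCT subunit genes, 5 had a negative turned mean, and the family median was -0.13, or 0.0007 with 3 of 6 positive when array 1 was left out. These subunits stand in equal number in the complex, and their means spanned -0.34 for CCT2 to 0.11 for CCT3. CCT2 read -1.89, 0.59, 0.28 and -0.33 and averaged -0.34 ± 1.10, or 0.18 without array 1. CCT3 averaged 0.11 ± 0.75, or -0.06 after scaling the arrays and -0.008 under array weights. CCT5, CCT7 and CCT8 averaged -0.17 ± 0.34, -0.12 ± 0.44 and -0.12 ± 0.50. CCT4 averaged -0.14 ± 1.15 in turned signs. As deposited CCT4 was positive on all 4 arrays, at 1.40, 1.30, 0.59 and 0.15, whereas CCT8 was negative on all 4, at -0.34, -0.34, -0.24 and -0.73. Their deposited means were 0.86 ± 0.60 and -0.41 ± 0.21, with limma adjusted p of 0.42 and 0.45, and the family median in that reading was 0.05, or -0.03 without array 1.

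Among the mitochondrial chaperone genes the arrays differed most for SSC1. SSC1, the main Hsp70 of the mitochondrial matrix, read 2.29, 2.35, 0.06 and 0.49 as deposited, with arrays 1 and 2 far above arrays 3 and 4. Its deposited mean of 1.30 ± 1.19 was the highest of the 42 genes in that reading, at a limma adjusted p of 0.42. That mean was 0.58 with array weights, 0.82 after print blocks were centred and 1.02 after scaling the arrays. Without 1 array it ran from 0.94 to 1.71. The turned mean of SSC1 was 0.12 ± 1.91, or -0.36 after print blocks were centred. HSP10, the co-chaperonin of the matrix, was negative on all 4 arrays as deposited, at -0.79, -1.39, -0.09 and -0.44, with a mean of -0.67 ± 0.56 and an adjusted p of 0.42 (limma). Its turned mean was -0.24 ± 0.92. MDJ2, a J protein of the inner membrane, averaged 0.05 ± 0.43 in turned signs and -0.33 ± 0.21 as deposited.

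Genes of trehalose, the disaccharide that protects proteins and membranes in stressed yeast, had a turned median of 0.12 over 4 genes, or -0.02 without array 3. NTH2, a neutral trehalase gene, was the highest. It read 0.49, 0.76, 0.91 and -0.31 in turned signs, above 0 on arrays 1 to 3, and averaged 0.46 ± 0.54 with a 95% interval of -0.22 to 1.14. TPS1, the trehalose phosphate synthase, averaged 0.11 ± 0.55, and TPS3, a regulatory subunit of that enzyme, 0.12 ± 1.07. TPS2, the phosphatase that completes the sugar, was the lowest at -0.29 ± 1.28. It read -2.18 on array 1 and between 0.02 and 0.62 on the others, and its mean was 0.34 without array 1 and 0.05 with array weights. Synthesis and breakdown genes of the pathway thus overlapped within the spread of the arrays.

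As deposited the trehalose median was -0.22. TPS3 read -0.57, -1.38, -1.11 and 0.19 in that reading and averaged -0.72 ± 0.69, with an adjusted p of 0.42 (limma). TPS2 stood at 0.61 ± 1.13 and TPS1 at -0.20 ± 0.51, so subunits of a single enzyme complex had means of both signs. Of the glycogen genes GAC1 alone was measured under its name. It codes for the subunit that directs protein phosphatase Glc7 to glycogen synthase, and it averaged 0.24 ± 0.96 in turned signs and 0.64 ± 0.66 as deposited. Its turned values were -1.08, 0.60, 0.28 and 1.17, with array 1 alone below 0.

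HSF1, the heat shock factor gene, averaged 0.27 ± 0.40 in turned signs over 3 probes, with 0.85 on array 1, between -0.06 and 0.16 on the others, and a mean of 0.07 without array 1. MSN4, which codes for a partner of Msn2, averaged -0.01 ± 0.70 in turned signs and 0.49 ± 0.41 as deposited, with 3 of 4 arrays above 0 in the latter. MSN1, a regulator of invertase and starch-degrading genes, averaged 0.28 ± 0.87 in turned signs.

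The 3 calcium signalling genes had positive means over 4 arrays in both readings. Without array 2 the deposited mean was -0.60 for CMK2 and -0.08 for RCN1, and the deposited median of the 3 genes turned from 0.18 to -0.08. With array weights these means were -0.23 and -0.03, and after scaling the arrays that of CMK2 was -0.02. CMK2, a calmodulin-dependent protein kinase gene, read 1.05, 2.39, 0.38 and -0.36 in turned signs, with array 4 alone below 0, and averaged 0.87 ± 1.17. RCN2 averaged 0.38 ± 0.64 and RCN1, which codes for a regulator of calcineurin, 0.18 ± 0.54. Array 2 was the highest for each of the 3, at 2.39, 1.32 and 0.97, and without it their turned means were 0.36, 0.07 and -0.08. SIS2, which shares only its letters with SIS1 and codes for an inhibitor of the phosphatase Ppz1, averaged 0.06 ± 0.19.

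Compared by group, chaperone genes leaned to the negative side in turned signs and other stress genes to the positive, without a test of the difference. Of 23 chaperone genes 9 had a positive turned mean (median -0.09), and 12 did without array 1 (median 0.01). Of 14 other stress genes 11 did (median 0.27), and 8 did without array 2 (median 0.06). Of 5 trehalose and glycogen genes 4 did (median 0.12), and 3 did without array 4 (median 0.02). A positive turned mean was found for 47.4% of all features. By array, the median of the chaperone genes was -0.40, 0.27, -0.06 and -0.30 and that of the other stress genes -0.01, 0.76, 0.17 and -0.07, with array 2 the highest for both groups. The median of the trehalose and glycogen genes was 0.49, 0.02, 0.39 and 0.38, above 0 on every array and lowest on array 2. None of these 5 genes was itself above 0 on every array, and different genes stood at the middle on different arrays. As deposited, 16 of 23 chaperone genes (median 0.16), 9 of 14 other stress genes (median 0.11) and 2 of 5 trehalose and glycogen genes (median -0.20) had a positive mean, beside 46.5% of all features. The last 2 medians changed sign, to -0.14 for other stress genes without array 2 and to 0.04 for storage sugar genes with array weights. The deposited count of chaperone genes with a positive mean fell to 12 of 23 without array 1 (median 0.06). It was also 12 without array 2 (median 0.13) and with array weights (median 0.08), but 16 without array 3 and 17 without array 4.

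**Figure D2:**
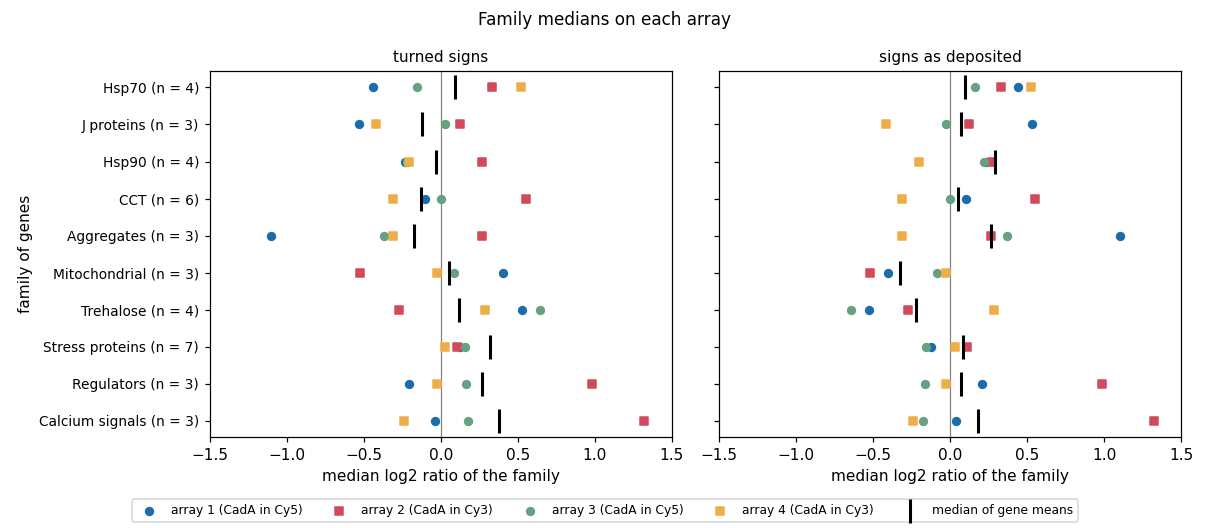
Median log2 ratio (horizontal axis) of each family of genes with more than 1 member (vertical axis) on each array, in turned signs on the left and as deposited on the right; coloured points are arrays and black bars are the medians of the gene means. In turned signs the arrays of every family but the stress proteins fall on both sides of 0.

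Within families, no family median kept its sign on all arrays in turned signs except that of the 7 stress protein genes. That median was 0.13, 0.11, 0.16 and 0.03 on arrays 1 to 4, although different genes stood at the middle on different arrays, and the median of the gene means was 0.32, or 0.06 without array 2. As deposited, the Hsp70 genes had medians of 0.44, 0.33, 0.16 and 0.52 and the mitochondrial chaperone genes -0.40, -0.52, -0.09 and -0.02. SSE2 was the highest of the 4 Hsp70 genes on every array in that reading, while SSA2, SSB1 and SSB2 had deposited means of -0.09, 0.16 and 0.03.

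Genes that kept their deposited sign through the dye swap were commoner than genes that kept their turned sign, both here and among all features. The deposited sign was the same on all 4 arrays for 10 of the 42 genes, or 23.8%, against 24.8% of all features. The turned sign was the same for 2 of 42, or 4.76%, against 6.98%. The 10 genes were CCT4, HSP26, HSP82, SSC1 and SSE2 on the positive side, where 12.4% of all features lay, and CCT8, HSP10, MDJ2, SIS2 and STI1 on the negative, where 12.3% lay. SSE2 read 0.52, 0.82, 0.48 and 1.11 as deposited and averaged 0.73 ± 0.29 (1.66-fold), with a 95% interval of 0.22 to 1.25 and a limma adjusted p of 0.42. Whether these values reflect the strains or the dyes cannot be told apart without the direction of the ratio.

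**Figure D3:**
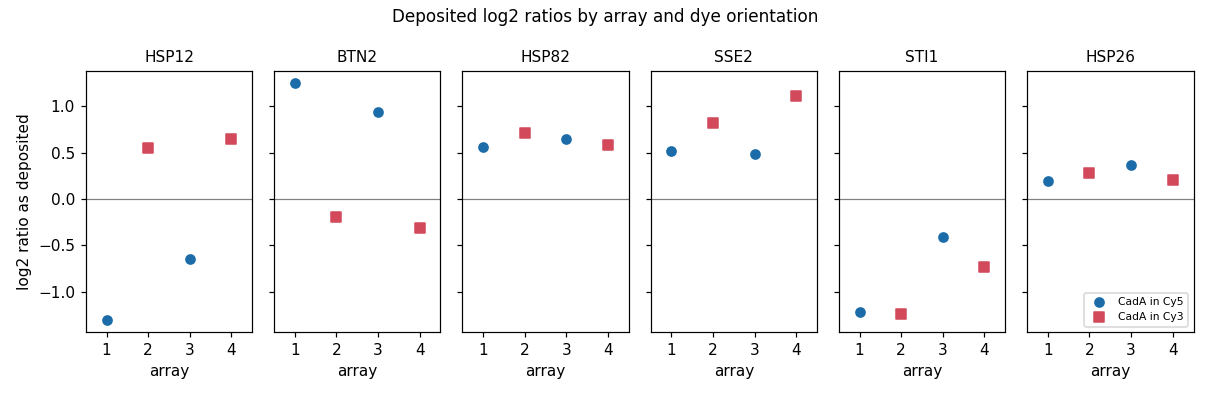
Deposited log2 ratios (vertical axis) of 6 genes on arrays 1 to 4 (horizontal axis); blue circles are arrays with CadA in Cy5 and red squares arrays with CadA in Cy3. HSP12 and BTN2 change sign with the dye orientation, while HSP82, SSE2 and HSP26 stay above 0 and STI1 below 0 on every array.

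**Figure D4:**
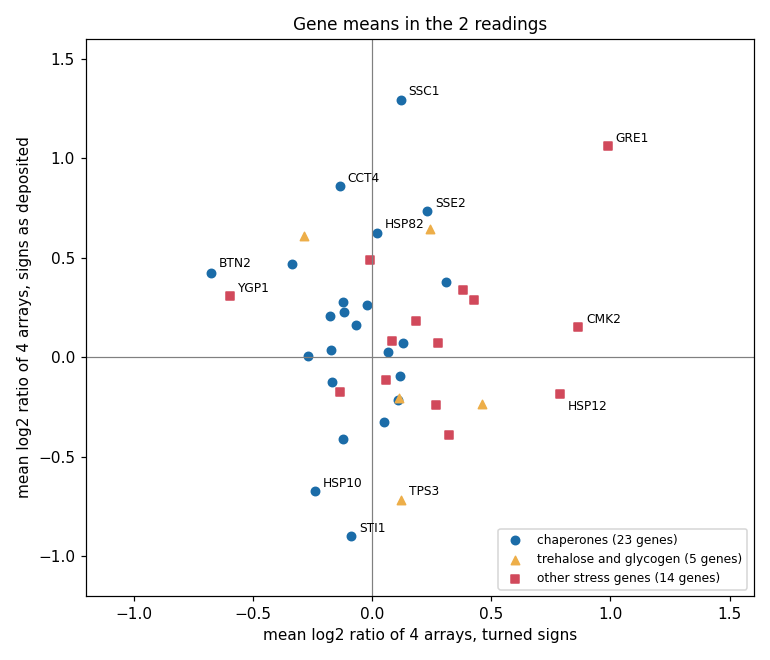
Mean log2 ratio of 4 arrays for each of the 42 genes, in turned signs on the horizontal axis and as deposited on the vertical axis; circles are chaperones, triangles trehalose and glycogen genes, squares other stress genes. HSP12 and CMK2 lie far along the horizontal axis and near 0 on the vertical, HSP82, SSC1 and STI1 far along the vertical and near 0 on the horizontal, and GRE1 far along both.

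The arrays agreed weakly over these genes. Across the 42 genes, which share the same 4 hybridisations, the Pearson correlation between arrays of equal dye orientation was 0.26 for arrays 1 and 3 and -0.09 for arrays 2 and 4. In signs as deposited, arrays of opposite orientation correlated at 0.18 (1 and 2), 0.22 (1 and 4), 0.06 (2 and 3) and 0.32 (3 and 4), and turning reverses these signs. Over all 5946 features the same pairs gave 0.17 and -0.02, then 0.34, 0.07, 0.00 and 0.22.

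Separate probes of a gene allowed a check for 4 genes. The 3 HSF1 probes had turned means of 0.16, 0.52 and 0.12, all positive, but deposited means of -0.39, -0.64 and 0.31. The highest of the 3 read 2.18 on array 1, where the others read 0.76 and -0.38. The CCT8 probes had turned means of -0.11 and -0.12 and deposited means of -0.54 and -0.28, with every deposited value below 0. The GRE2 probes had turned means of -0.17 and -0.10 but deposited means of -0.53 and 0.18, and the SSB1 probes -0.08 and -0.05 in turned signs and 0.13 and 0.19 as deposited. Probes of each gene thus had the same sign in the turned mean for 4 of 4 genes and in the deposited mean for CCT8 and SSB1. Turning flips all probes of an array together, so their agreement on each array is the same in both readings. Only the CCT8 probes agreed in sign on every array. HSF1 probes 1 and 3 were opposite on every array, at 0.76, -0.33, 0.33 and -0.14 against -0.38, 0.49, -0.003 and 0.38 in turned signs. The GRE2 probes were opposite on arrays 1 to 3 and the SSB1 probes on arrays 2 to 4.

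Other genes of the same pathways gave no call either. Of 24 measured co-chaperone and prefoldin genes outside the rule, 6 had a positive turned mean, where 47.4% of all features did. Their median was -0.17, with 0 called in either direction. The highest was MGE1, the nucleotide exchange factor of Ssc1, at 1.29 ± 2.26, with 4.58 on array 2, and the lowest XDJ1, a J protein gene, at -0.40 ± 0.47. Of 16 other Msn2 and Msn4 targets 9 had a positive turned mean (median 0.00), with 0 called. The highest of these, STF2, averaged 0.41 ± 1.03 and the lowest, RTN2, -0.28 ± 0.58, with no test against HSP12. Medians were -0.08 for 6 measured partners in trehalose and glycogen metabolism, 0.08 for 19 stress signalling genes and -0.00 for 5 genes of the calcineurin pathway, with 0 called in each.

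In signs as deposited the same lists had medians of -0.18, -0.17, -0.13, -0.04 and 0.32, in that order, with 0 called. Positive deposited means were found for 5 of 24 co-chaperone and prefoldin genes and 4 of 16 other Msn2 and Msn4 targets. They were found for 2 of 6 partner genes of storage sugars and 8 of 19 signalling genes. An unadjusted limma p below 0.05 was reached by 2 co-chaperone genes, 2 other Msn2 and Msn4 targets, 1 partner gene of storage sugars and 1 signalling gene. These were 6 of 69 distinct genes, or 8.7%, against 11.7% of all features, and in turned signs the same lists had 0. The 5 calcineurin pathway genes all had a positive deposited mean, from 0.01 for CMD1, the calmodulin gene, to 0.62 for CNA1, a catalytic subunit of calcineurin. A positive deposited mean was found for 46.5% of all features. CNA1 read 0.76, 1.67, 0.26 and -0.21 as deposited, highest on array 2, and CMD1 had arrays on both sides of 0. In turned signs 2 of the 5 had a positive mean.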

How the data were processed

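The values used are 1 normalized log2 ratio per probe and array, as deposited for 4 arrays of spotted yeast genes hybridised in 2 colours; per the submitters' processing notes the authors made them with limma 3.2.1. The log base is not stated and was taken as 2. For normalization, background correction and spot handling the method is not given in the sources. All 4 columns matched 1 sample each, and 54 of 6216 probes had no value. The number of arrays limits the precision.

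Probes were named from the platform annotation, with symbols updated to R64; 3344 had 1 symbol, 387 several and 2485 none here. Probes of a gene were averaged (5946 features). A two-sided test of the mean of 4 arrays against 0 used limma 3.58.1 under R 4.3.3 (lmFit, eBayes), adjusted by Benjamini-Hochberg over all features at 0.05. The fit was tried on simulated data with true changes larger than the mean of any gene named here. That trial cannot show how the fit handles changes of the size seen. All sign turning used the dye labels.

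Members, lists and readings were chosen with earlier results of these data known. Genes named were the highest and lowest of each family, those with 1 sign on all turned arrays or a low unadjusted p in either reading, and a set list; the remaining members are named to account for all. The promoter motif search planned was not run, as no sequences were used here. Alternatives were leaving out each array, centring the 48 print blocks, scaling arrays, array weights, the first probe per gene, averaged array pairs, a strain and dye fit, and ordinary statistics.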

Additional observations from a re-analysis of the deposited data

Results flagged for a closer look

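Arrays that stood far from the other 3 of a gene were found for 3 of the 42 genes in turned signs and 2 as deposited. If the arrays had a common normal spread, 2.1 would be expected in each reading. Arrays 1 and 2 were wider than the others, and every flagged value lay on array 1 or 2, so that number is no fair standard here. The share over all features was not counted. GRE1 read 4.35 on array 2 in both readings, against -0.29 to 0.15 on the other arrays in turned signs. PNC1 read 1.54 on array 2 in both readings, against -0.11 to 0.16 in turned signs. HSP12 read 1.31 on array 1 in turned signs, against 0.55 to 0.65 on the others, and averaged 0.61 without array 1.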

How the results depend on the processing

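No alternative brought any of the 42 genes past the threshold: the smallest limma adjusted p was 0.68 over 11 alternatives in turned signs and 0.24 over 9 as deposited, where ordinary statistics were added after seeing the data. The number of genes with an unadjusted p below 0.05 in turned signs was 2, and it was 1 after print blocks were centred and 1 with ordinary statistics. It ran from 0 to 3 when 1 array was left out, and as deposited from 3 to 6 against 7. The turned median of the stress proteins was 0.22 after block centring, 0.23 with array weights and 0.059 to 0.42 without 1 array. That of trehalose and glycogen genes was 0.35 with array weights and 0.024 to 0.34 without 1 array. The deposited median of the stress proteins was 0.27 after block centring and -0.13 to 0.15 without 1 array. The other family medians moved by less than the SD between arrays, except that of SIS2, alone in its family, at 0.13 after block centring as deposited. The turned median of the mitochondrial chaperones fell only just short of that SD, 0.39. It went from 0.05 to -0.33 after block centring. Staying within the SD between arrays is not read as stability. In a family of 1 gene, leaving out 1 array always moves the mean by less than that SD, so the comparison cannot fail there. In larger families that SD could still exceed a change of sign. The turned Hsp70 median went from 0.09 to -0.10 without array 4, within its SD of 0.44. Being near 0, the medians of 9 of 12 families in turned signs and 6 of 12 as deposited changed sign under at least 1 alternative. The cause of these shifts was not tested.

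Signs of single genes often hung on 1 array. HSP12 and BTN2 were the only 2 of the 42 genes whose turned mean moved by less than 1.5 times whichever array was left out, and 29 changed sign. As deposited 10 moved by less than that and 15 changed sign. These counts were not made over all features. HSP12 and BTN2 had 1 sign on all turned arrays, so leaving 1 out could not reverse their means. Their place here is thus no separate support for them. Among genes given by the naming rule, the turned mean without 1 array ran from -0.64 to 0.18 for CCT2, -0.10 to 0.47 for CCT3, -0.61 to 0.29 for CCT4, -0.065 to 0.68 for GAC1, -0.13 to 1.41 for GRE1, -0.58 to 0.15 for HSP10, -0.12 to 0.097 for HSP26, -0.21 to 0.24 for HSP82, -0.071 to 0.58 for MSN1, -0.34 to 0.16 for MSN4, -0.077 to 0.33 for RCN1, -0.26 to 0.62 for SBA1, -0.099 to 0.35 for SIS1, -0.030 to 0.12 for SIS2, -0.12 to 0.36 for SSA2, -0.15 to 0.071 for SSB1, -0.20 to 0.31 for SSB2, -0.62 to 0.92 for SSC1, -0.060 to 0.48 for SSE2, -0.52 to 0.30 for STI1, -0.080 to 0.34 for TPS1, -0.59 to 0.34 for TPS2, -0.21 to 0.62 for TPS3 and -0.28 to 0.12 for YDJ1. As deposited it ran from -0.0080 to 0.73 for CCT2, -0.54 to 0.032 for CCT3, -0.60 to 0.55 for CMK2, -0.035 to 1.497 for GRE1, -0.47 to 0.19 for HSP12, -0.34 to 0.30 for MSN1, -0.082 to 0.32 for RCN1, -0.16 to 0.72 for SBA1, -0.18 to 0.31 for SIS1, -0.34 to 0.15 for SSA2, -0.25 to 0.26 for SSB2, -0.029 to 0.80 for YGP1 and -0.18 to 0.22 for ZUO1. Under block centring the turned mean changed sign for HSP26 (0.029), SIS1 (-0.15), SIS2 (-0.0089), SSA2 (-0.0052), SSC1 (-0.36), STI1 (0.021) and YDJ1 (0.038), and the deposited mean for HSP12 (0.059), MSN1 (-0.20), SIS2 (0.13) and SSB2 (-0.053). Under array weights it did so in turned signs for CCT3 (-0.0079), HSP82 (-0.18), STI1 (0.063) and TPS2 (0.047), and as deposited for CCT2 (-0.023), CMK2 (-0.23), MSN1 (-0.40), RCN1 (-0.025), SBA1 (-0.012), SIS1 (-0.35), TPS1 (0.044) and ZUO1 (-0.16). With arrays scaled it did so in turned signs for CCT3 (-0.061) and as deposited for CMK2 (-0.023), MSN1 (-0.16), SIS1 (-0.13) and ZUO1 (-0.11). The strains are already paired within each array by the log ratio. Averaging arrays 1 with 2 and 3 with 4 first, as if each pair were a technical dye swap, gave 3 turned genes with an unadjusted p below 0.05 and 0 called.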
